A study of Mus musculus with 16 samples.

Results

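The comparison of Lepob/+ with WT mice rests on 8 of the 16 RNA libraries of the series, 4 of each genotype, taken by the genotype in the sample labels. All 8 hold RNA of inguinal white fat (iWAT), which lies under the skin of the groin, from female C57BL/6 mice at 90 days of age. Lepob/+ mice are heterozygous in the germline for the ob allele of the leptin gene, WT mice have both copies intact, and the labels name no drug, diet or tissue-restricted deletion for any group. The other 8 libraries, 4 SOD1-G93A and 4 SOD1-G93A Lepob/+, come from mice with a transgene of mutant human SOD1. They share the estimate of the spread between libraries. They also show how libraries with and without the ob allele differed on the transgenic background. Mice came from crosses of female Lepob/+ with male SOD1-G93A mice. The question is how the fat transcriptome of the adipocytes, the stroma, the vessels and their metabolism differed when 1 copy of leptin was lost.

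Leptin is a hormone made by adipocytes in proportion to fat mass. It acts on the brain and on other tissues through the long form of its receptor, Lepr, which activates the kinase Jak2 and the transcription factor Stat3, and Stat3 in turn induces the feedback inhibitor Socs3. Mice with no working leptin eat more, become obese and store lipid in their fat pads, while mice with 1 working copy have a milder shift of the same kind. White adipocytes build fatty acids from glucose with enzymes such as Fasn, esterify them to triglyceride and release them by lipolysis, and inguinal fat can also hold beige adipocytes that burn lipid through Ucp1.

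The ob allele is a C-to-T change that turns an arginine codon of Lep into a stop codon. The stretch of the normal coding sequence around that codon is shown because it is what separates the 2 genotypes, with the codon in capitals.
Lep: ctggagaatctcCGAgacctcctccat
This stretch lies at chr6:29070979-29071005 on the plus strand of GRCm38 in exon 3 of 3 (GENCODE M21), within the coding sequence. The codon, at bases 29070991 to 29070993, is number 105 of 167 and the 1 CGA codon in the reading frame. The files hold counts per gene, so transcripts of the normal and the ob allele were counted together.

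Library totals ran from 37.2 to 43.8 M counts (M for mega) in WT (median 39.5 M) and from 38.0 to 49.7 M in Lepob/+ (median 42.9 M). Levels are given in CPM, counts scaled to 1 common library total after TMM, and replicates are named by number. The labels put the reads at 30 M for every sample, fewer than any library total here, and no source says if a count stands for 1 read or for a pair. Transcripts of other tissues differed between libraries more than those of fat. A list of 25 skeletal muscle genes took 18.4% of the counts of Lepob/+ 4 and 0.707% of those of WT 3, against 0.00693% to 0.00857% in the other 6 libraries. A list of 24 T cell genes took 0.192% in WT 1, 0.147% in WT 2 and 0.213% in Lepob/+ 3, against 0.00223% to 0.00741% in the other 5, and 16 genes of lymph node stroma took 0.112%, 0.0866% and 0.15% in the same 3 libraries against 0.0132% to 0.0313%. Results are therefore given for each library, and also without the muscle-holding libraries (Lepob/+ 4 and WT 3) and without the lymph node-holding ones (Lepob/+ 3, WT 1 and WT 2). Xist, the transcript of the inactive X chromosome, was at 396.2 to 558.9 CPM in the 8 libraries. It had no count in the library labelled SOD1-G93A Lepob/+ 3, which is labelled female and enters the shared spread and the transgenic comparison.

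**Figure D1:**
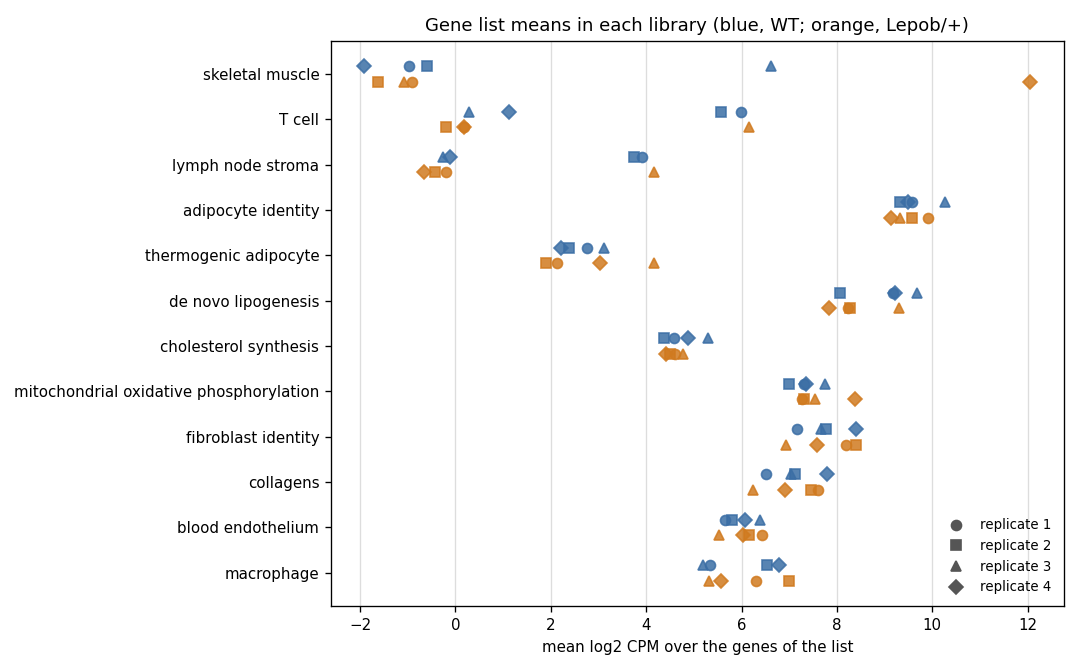
Mean log2 CPM over the genes of 12 lists (horizontal axis) in each of the 4 WT (blue) and 4 Lepob/+ (orange) libraries, with the replicate number given by the symbol. Lepob/+ 4 and WT 3 stand out for the skeletal muscle list at 12.06 and 6.62, WT 1, WT 2 and Lepob/+ 3 for the T cell list at 5.99, 5.58 and 6.16, and the adipocyte identity list lay between 9.13 and 10.26 in all 8.

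Adipocyte markers were high in every library, with Adipoq, the gene of the hormone adiponectin, at no less than 1208.7 CPM, so that the label of adipose tissue held in all 8. No gene passed the test between Lepob/+ and WT after adjustment. Of 19736 genes tested by edgeR's quasi-likelihood test with Benjamini-Hochberg adjustment, 0 passed 0.05, and the smallest adjusted p was 1. DESeq2 on the 8 libraries called 5 of 28721 genes (0.0174%), namely Aqp5, Ddit4, Gm128, Gm4613 and Itgav. At an unadjusted p under 0.05 edgeR listed 862 genes, 4.37% of those tested, of which 702 (3.56%) were higher in Lepob/+ and 160 (0.811%) lower. Of the 702, 628 had their highest level in Lepob/+ 4 (89.5%), compared with 5128 of all genes tested (26%).

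Without the muscle-holding libraries the counts at an unadjusted p were 165 higher (0.836%) and 113 lower (0.573%). Without the lymph node-holding libraries they were 496 higher (2.51%) and 356 lower (1.8%), and without both kinds 348 higher (1.76%) and 232 lower (1.18%). Without Lepob/+ 4 alone the balance turned, with 116 higher and 219 lower, and with the lymph node and muscle levels as covariates the counts were 494 higher and 507 lower. Of the 862 genes, 143 kept their direction and their unadjusted p without the muscle-holding libraries and 371 without the lymph node-holding ones. In the 4 themes of adipocyte, metabolic, stromal and vascular genes, 546 distinct genes were measured, of which 32 (5.86%) were higher and 8 (1.47%) lower at an unadjusted p. Over all genes tested these shares were 3.56% and 0.811%, which are also the background for the counts of single lists below. Because nothing passed the adjusted test, the differences below are given as values. Log2 fold changes of Lepob/+ against WT are from edgeR, with ± their SE over 4 and 4 libraries, and a difference with an unadjusted p under 0.05 is called nominal, which measures it against the spread between these libraries only. Fewer cells of a type and less RNA per cell cannot be told apart in such tissue samples.

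Leptin mRNA itself did not separate the genotypes. Lep was at 208.4, 202.3, 681.5 and 633.2 CPM in WT 1 to 4 and at 557.5, 446.8, 180.7 and 687.2 CPM in Lepob/+ 1 to 4. The groups overlapped (log2 fold change 0.12 ± 0.59, not nominal), and the 3 lowest libraries, between 180.7 and 208.4 CPM, were WT 1, WT 2 and Lepob/+ 3, those with lymph node RNA. Whether that RNA had a part in the low Lep values was not tested. Lepr, the receptor, was at 7.16, 9.58, 2.66 and 3.65 CPM in WT and at 5.93, 4.18, 9.11 and 4.3 CPM in Lepob/+ (log2 fold change 0.03 ± 0.43, not nominal), again with full overlap. The mouse Sod1 gene was at 390.1, 357.1, 496.9 and 353.9 CPM in WT and 410.7, 416.6, 329.7 and 276.7 CPM in Lepob/+ (log2 fold change -0.16 ± 0.18, not nominal).

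Of 14 measured genes of leptin receptor signalling and feedback, 0 were higher or lower at an unadjusted p, and their median log2 fold change was 0.03, the same as over all genes tested (0.03). Stat3 was at 165.1, 167.1, 159.2 and 166.1 CPM in WT and 167.8, 154.3, 180.7 and 238.1 CPM in Lepob/+ (log2 fold change 0.17 ± 0.14, not nominal). In the 3 Lepob/+ libraries other than Lepob/+ 4 it lay close to the narrow WT range. Jak2 had a log2 fold change of 0.32 ± 0.20 (not nominal), with its highest level of 91.8 CPM also in Lepob/+ 4. Irs2, the insulin receptor substrate that relays insulin and leptin signals, was at 58.1, 84.9, 97.1 and 53 CPM in WT and 139.2, 134.1, 59.3 and 75.3 CPM in Lepob/+. Lepob/+ 1 and 2 lay above all WT libraries, and Lepob/+ 3 and 4 lay among them (log2 fold change 0.48 ± 0.27, not nominal).

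Socs3 was looked at as the direct feedback target of Stat3, after its values were seen. Its level was 35.9, 33.1, 23 and 33 CPM in WT and 27.4, 29.1, 38.9 and 23.4 CPM in Lepob/+ (log2 fold change -0.07 ± 0.22, not nominal), with overlapping groups. Stat proteins bind the palindrome TTCNNNGAA, which reads the same on both strands. Promoters of 300 bases (250 before to 50 after the start site, RefSeq, GRCm38.p6) were at hand for 13 genes of the leptin receptor list, 17 promoters in all, and 1 of them held this motif, that of Socs3. Among all 32851 promoters 8.3% held it. The site is shown with the motif in capitals.
Socs3: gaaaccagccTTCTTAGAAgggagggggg
It lies at chr11:117969502-117969530 on the minus strand, and the motif begins 154 bases before the start site. Its presence is a description of the sequence, and binding was not measured.

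Complete separation of the 8 libraries was rare. In 105 genes every Lepob/+ library was above every WT library (0.532% of genes tested), and in 74 genes every one was below (0.375%). On the transgenic background the same kind of separation was found for 707 genes higher (3.58%) and 710 lower (3.6%) in SOD1-G93A Lepob/+ than in SOD1-G93A. Of the 105 genes, 0 were also separated upwards there and 2 downwards. Of the 74 genes, 1 was also separated downwards and 1 upwards. The transgenic groups also differed in lymph node RNA. The mean log2 CPM of the lymph node stroma list was 3.9, 4.38, -0.62 and 3.89 in SOD1-G93A and 0.06, -0.13, -0.56 and -0.38 in SOD1-G93A Lepob/+. The part of that RNA in the separation of the transgenic groups was not tested. The interaction, which is the Lepob/+ difference with the transgene minus that without it, was opposite in sign to the Lepob/+ difference for all 105 genes and for 69 of the 74, at an unadjusted p for 31 and 23 of them. These genes were chosen by their separation in the first difference, which also enters the interaction, so this direction is partly fixed by the choice.

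Il6st was among the genes separated upwards. Il6st encodes gp130, the shared receptor subunit for interleukin 6 and related cytokines and a relative of the leptin receptor. It was at 125.2, 149.8, 104.9 and 89.5 CPM in WT and at 248.4, 175.2, 193 and 187.1 CPM in Lepob/+ 1 to 4, so that the lowest Lepob/+ library lay above the highest WT library (log2 fold change 0.78 ± 0.20, nominal). Without the muscle-holding libraries the log2 fold change was 0.74 and without the lymph node-holding ones 1.05. On the transgenic background the groups overlapped, at 158.1, 195.9, 207.5 and 221.3 CPM in SOD1-G93A and 168.3, 163.5, 267.8 and 218.2 CPM in SOD1-G93A Lepob/+ (interaction -0.71, nominal). All SOD1-G93A libraries thus lay above the WT range, and of the double mutants 3 lay in the SOD1-G93A range and 1 above it.

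Tm9sf1, a membrane protein of the endosome and autophagy pathway, was separated downwards. It was at 42.5, 37.3, 33.7 and 39.8 CPM in WT and 26.1, 27.7, 22 and 23 CPM in Lepob/+ (log2 fold change -0.63 ± 0.17, nominal). On the transgenic background it was at 28.9, 48.8, 32.7 and 29.1 CPM in SOD1-G93A and 47.4, 36.4, 36 and 42.9 CPM in SOD1-G93A Lepob/+, so that the groups overlapped and the difference pointed up (interaction 0.85, nominal). Egr1, an immediate early transcription factor induced by growth factor and leptin receptor signals, was named after its values were seen. It was at 63.4, 59.3, 98 and 144.9 CPM in WT and 54.1, 31.2, 57.3 and 52.7 CPM in Lepob/+ (log2 fold change -0.90 ± 0.29, nominal), with the highest Lepob/+ library just below the lowest WT library.

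Gcnt2 and Rab7, both also named after their values were seen, were separated upwards. Gcnt2, a glycosyltransferase that branches sugar chains at the cell surface, was at 10.6, 14.7, 6.53 and 12.3 CPM in WT and 21.3, 21, 22 and 25.2 CPM in Lepob/+ (log2 fold change 1.02 ± 0.28, nominal). Rab7, the small GTPase of late endosomes and lysosomes, was at 137.8, 141.9, 170.8 and 180.9 CPM in WT and 232.9, 249.2, 186.9 and 281.1 CPM in Lepob/+ (log2 fold change 0.59 ± 0.18, nominal). The margin between the groups was wider than the SD of either group in Gcnt2 and narrow in Rab7.

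Among the 10 smallest p-values were also genes with few counts. Gm525 was at 1.59, 1.37, 1.78 and 1.56 CPM in WT and 0.945, 0.562, 0.461 and 0.566 CPM in Lepob/+ (log2 fold change -1.28 ± 0.26, nominal), and at 1.07, 0.678, 1.29 and 0.808 CPM in SOD1-G93A and 1.37, 1.45, 1.22 and 1.24 CPM in SOD1-G93A Lepob/+ (interaction 1.72, nominal). Gm18537 was at 0.64, 1.48, 0.465 and 0.873 CPM in WT and 4.2, 5.01, 3.42 and 1.5 CPM in Lepob/+ (log2 fold change 2.0 ± 0.48, nominal), and its interaction was -3.19 (nominal). Both genes were separated in Lepob/+ against WT, and both differences turned the other way with the transgene.

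Ddit4, also called REDD1, restrains mTORC1 and is induced by glucocorticoids, low oxygen and nutrient stress. It was at 40.7, 29.5, 38 and 19.4 CPM in WT and 77.2, 70.2, 78.4 and 75.7 CPM in Lepob/+ (log2 fold change 1.24 ± 0.38, nominal). The 4 Lepob/+ libraries were within a narrow range, far above the highest WT library. With the transgene it was at 64.9, 72.5, 61.7 and 90.5 CPM in SOD1-G93A and 17.3, 30.5, 60.7 and 88.8 CPM in SOD1-G93A Lepob/+ (interaction -1.79, nominal), so that 2 of the double mutant libraries were as low as WT and 2 were not. Aqp5, a water channel of glands, was at 54.9, 29.8, 79.4 and 62.1 CPM in WT and 19, 21.5, 19.2 and 15.9 CPM in Lepob/+ (log2 fold change -1.58 ± 0.63, nominal). Without the muscle-holding libraries its log2 fold change was -1.31 (not nominal). In SOD1-G93A 3 libraries were at 10.9 to 15.3 CPM and the other at 75.0 CPM.

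Itgav and Slc36a1 were at 1 of 2 distinct levels rather than spread. Itgav, the alpha V chain of the integrins that bind vitronectin and activate TGF-beta, was at 5.59, 35.2, 27 and 25.5 CPM in WT 1 to 4 and 4.3, 4.74, 4.18 and 3.9 CPM in Lepob/+ (log2 fold change -2.44 ± 0.72, nominal). WT 1 lay at the Lepob/+ level, as did the 4 SOD1-G93A libraries (5.12, 5.08, 3.09 and 7.53 CPM), and of the double mutants 1 library was at 34.7 CPM and the other 3 at 3.11 to 4.72 CPM. Slc36a1, the lysosomal amino acid transporter that works with mTORC1, was at 36.6, 50.3, 5.5 and 52.6 CPM in WT and 9.83, 8.63, 7.0 and 7.19 CPM in Lepob/+ (log2 fold change -2.15 ± 0.55, nominal). WT 3 lay below all Lepob/+ libraries, and the SOD1-G93A libraries (40.5, 46, 50.7 and 42.6 CPM) were at the upper level. So were SOD1-G93A Lepob/+ 1, 2 and 4, which carry the ob allele, while SOD1-G93A Lepob/+ 3 was at the lower level. Gm128, with counts of 17, 9, 15 and 10 in the WT libraries, had 0 in all 4 Lepob/+ libraries, which is at least 16.3-fold lower when 3 counts over the group are taken as the limit. With the transgene Gm128 was at 0.469, 0, 0 and 0.392 CPM in SOD1-G93A and 0, 0.4, 0 and 0.393 CPM in SOD1-G93A Lepob/+. Libraries at 0 thus occurred there with and without the ob allele. Gm4613, with counts of 94, 0, 60 and 52, also had 0 in all 4 Lepob/+ libraries, at least 65.8-fold lower on the same limit, but WT 2 was at 0 too.

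**Figure D2:**
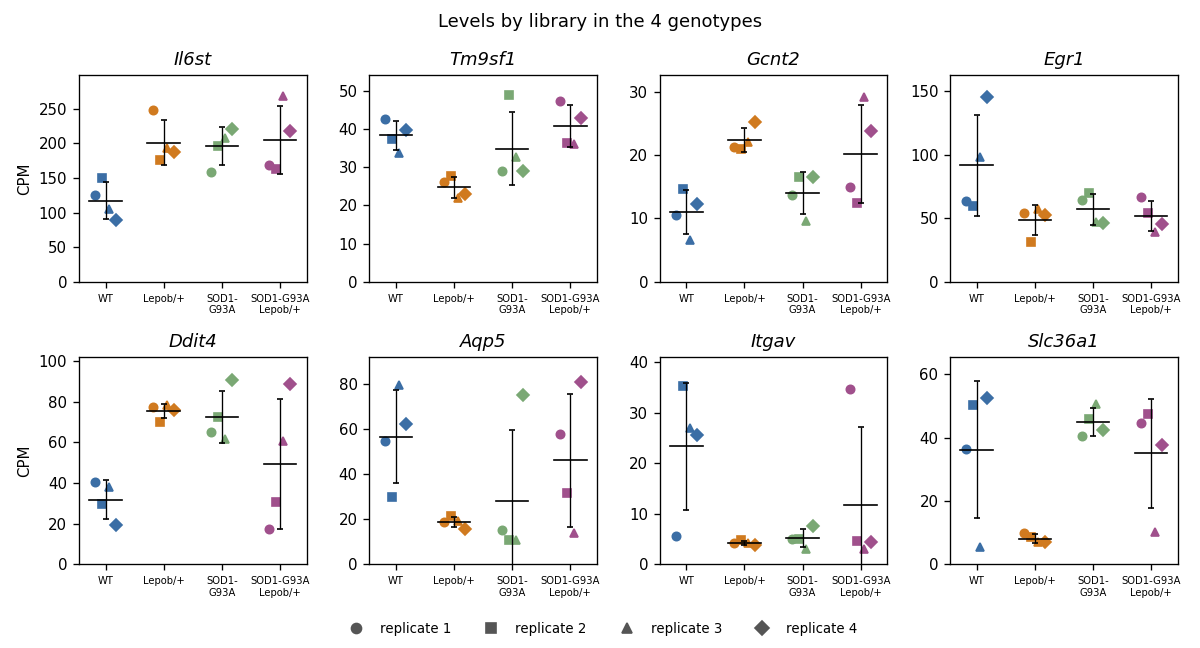
CPM (vertical axes) of 8 genes in the 16 libraries of the 4 genotypes, with symbols for the replicates, a line for the mean and bars for the SD (n = 4), drawn down to 0. Il6st, Gcnt2 and Ddit4 were separated upwards and Tm9sf1, Egr1, Aqp5 and Itgav downwards in Lepob/+ against WT, while on the transgenic background each of the 8 genes overlapped between the groups, with Itgav at 34.7 CPM in 1 double mutant library only.

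Genes that define adipocytes overlapped between Lepob/+ and WT. Of 20 measured genes of adipocyte identity, 0 were higher or lower at an unadjusted p, and 15 had a negative log2 fold change, with a median of -0.13 (all genes 0.03) that was 0.17 without the muscle-holding libraries. Adipoq was at 1473.1, 1547.2, 2972.7 and 2085.8 CPM in WT and 2753.1, 2062.4, 1208.7 and 1335.1 CPM in Lepob/+ (log2 fold change -0.13 ± 0.35, not nominal). Fabp4, the fatty acid binding protein of adipocytes, was at 8139, 7869.6, 12009.4 and 7154 CPM in WT and 11164.3, 10047.1, 5392 and 5662.6 CPM in Lepob/+ (log2 fold change -0.12 ± 0.28, not nominal). In both genes Lepob/+ 1 and 2 were above Lepob/+ 3 and 4, and WT 3 was the highest of WT.

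Adrb3, the beta-3 adrenergic receptor that starts lipolysis, had the smallest p of the adipocyte list. It was at 533.7, 517.3, 733.2 and 428.8 CPM in WT and 479.9, 431.9, 349.4 and 165.4 CPM in Lepob/+ (log2 fold change -0.63 ± 0.32, not nominal). The lowest value was that of Lepob/+ 4, and without the muscle-holding libraries the log2 fold change was -0.24 (not nominal). Cfd, or adipsin, had a log2 fold change of -0.13 ± 0.32 (not nominal). Cebpa, the transcription factor of late adipogenesis, was at 627.7, 476.3, 1008.4 and 113.2 CPM in WT and 713.7, 605.3, 450.6 and 369 CPM in Lepob/+, and WT 4 alone was below all Lepob/+ libraries (log2 fold change -0.06 ± 0.57, not nominal). Of 20 adipogenic transcription factors, 2 were higher (3.56% over all genes) and 0 lower at an unadjusted p (median 0.02). Of 24 lipolysis and lipid droplet genes 1 was higher and 0 lower (median -0.08).

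Among 18 adipokines and other secreted factors, 1 was higher and 2 were lower at an unadjusted p (3.56% and 0.811% over all genes), with a median of -0.07. Orm1, the acute phase protein orosomucoid, was at 212.5, 147.9, 266.5 and 165.3 CPM in WT and 179.9, 135.1, 95.6 and 111.7 CPM in Lepob/+ (log2 fold change -0.60 ± 0.26, nominal). Apln, the peptide apelin, was at 10.4, 7.1, 20.3 and 13.9 CPM in WT and 8.75, 7.14, 6.1 and 8.53 CPM in Lepob/+ (log2 fold change -0.76 ± 0.32, nominal). Both groups overlapped in Orm1 and Apln, and on the transgenic background both pointed upwards (interaction 1.24, nominal, for Orm1 and 1.13, nominal, for Apln). Nampt, which makes NAD from nicotinamide, was separated upwards by a narrow margin, at 81.9, 83.7, 88.9 and 78.1 CPM in WT and 90.1, 92.8, 99.4 and 190.4 CPM in Lepob/+ (log2 fold change 0.51 ± 0.25, not nominal).

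Lipid synthesis genes were lower in 3 of the 4 Lepob/+ libraries, with a WT library at the same low level. Fasn, the fatty acid synthase, was at 13316.7, 3280.1, 16948.6 and 9676.3 CPM in WT 1 to 4 and 2864, 2728.5, 13320.1 and 1743.7 CPM in Lepob/+ 1 to 4 (log2 fold change -1.07 ± 0.75, not nominal). Lepob/+ 3 lay at the level of WT 1, and WT 2 lay near Lepob/+ 1 and 2. Acly, the enzyme that turns citrate into acetyl-CoA and named after its values were seen, was at 1164.4, 220.1, 2082.2 and 1864.4 CPM in WT and 232.6, 313.9, 2006.9 and 171.5 CPM in Lepob/+ (log2 fold change -0.97 ± 0.85, not nominal). Me1, the malic enzyme that supplies NADPH, was at 1852.5, 492.9, 2059.9 and 2099.7 CPM in WT and 474.2, 576.1, 1648.3 and 557.5 CPM in Lepob/+ (log2 fold change -1.0 ± 0.62, not nominal). Lepob/+ 3 was high in all 3 genes, and WT 2 lay among the low Lepob/+ libraries in Acly and Me1 and above them in Fasn.

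Of 20 measured genes of de novo lipogenesis, 18 had a negative log2 fold change (8769 of the 19736 over all genes), with a median of -0.50 (all genes 0.03). At an unadjusted p 1 was lower and 0 were higher. The gene lower at an unadjusted p was Scd2, a desaturase, at 316, 143.2, 689.8 and 603.9 CPM in WT and 187.6, 167.1, 352.1 and 180.8 CPM in Lepob/+ (log2 fold change -0.98 ± 0.45, nominal). Scd1, the main desaturase of adipocytes, was at 28186.3, 20915.1, 45989.3 and 25708.2 CPM in WT and 31412.4, 24697.3, 30308 and 10857.8 CPM in Lepob/+ (log2 fold change -0.31 ± 0.36, not nominal), with WT 3 the highest and Lepob/+ 4 the lowest. Leaving out Lepob/+ 3, WT 1 and WT 2 also removes the high Lepob/+ 3 and the low WT 2. On the remaining 5 the median was -1.27 with 11 of 20 genes lower at an unadjusted p (1.8% of all genes). There the log2 fold changes were -2.46 (nominal) for Fasn and -3.05 (nominal) for Acly. Without the muscle-holding libraries the median of the list was -0.16. Without both kinds, which leaves WT 4 as the only WT library, it was -0.97.

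On the transgenic background Fasn was at 12105, 8286.9, 16427.8 and 8089.8 CPM in SOD1-G93A and 11681.4, 1288.3, 3484 and 12415.8 CPM in SOD1-G93A Lepob/+. There, too, the ob allele was found with both levels, with 2 double mutant libraries below and 2 within the SOD1-G93A range (interaction 0.43, not nominal). None of the 4 SOD1-G93A libraries was at the low level seen in WT 2.

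Enzymes of triglyceride synthesis followed the same libraries in part. Of 15 genes measured, 1 was lower and 0 were higher at an unadjusted p, with a median of -0.36. Mogat2, which adds an acyl chain to monoacylglycerol, was at 3.36, 1.25, 7.08 and 10.7 CPM in WT and 1.85, 1.69, 1.17 and 2.26 CPM in Lepob/+ (log2 fold change -1.67 ± 0.63, nominal). WT 2 lay among the Lepob/+ libraries, while Lepob/+ 3 was the lowest of all 8. With the transgene Mogat2 was at 3.54, 3.16, 7.27 and 2.03 CPM in SOD1-G93A and 8.24, 2.12, 13.6 and 5.28 CPM in SOD1-G93A Lepob/+ (interaction 2.54, nominal). Dgat2, which completes triglyceride, was at 893.5, 413.1, 1926.3 and 1861.6 CPM in WT and 644.6, 517.3, 1081.7 and 636.7 CPM in Lepob/+ (log2 fold change -0.82 ± 0.50, not nominal).

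**Figure D3:**
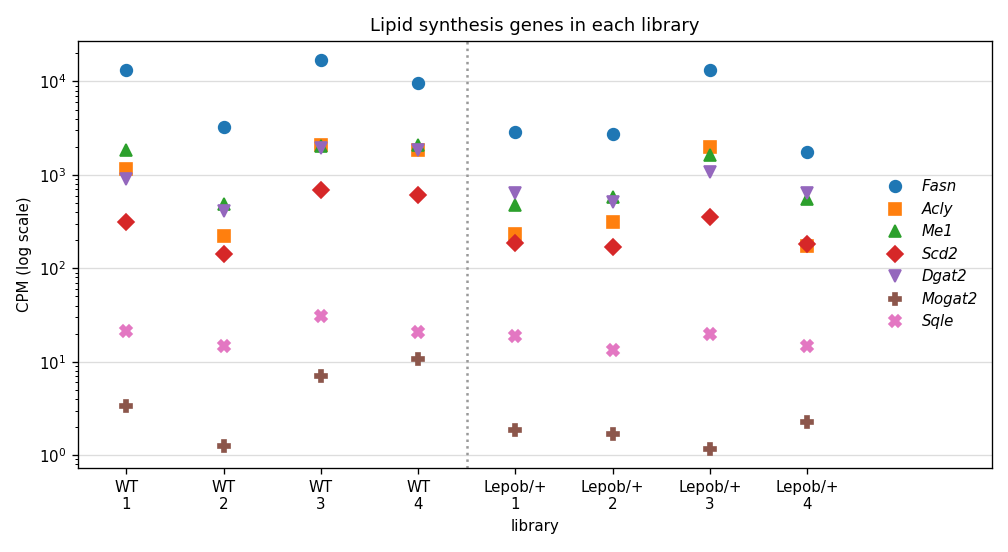
CPM on a log scale (vertical axis) of 7 lipid synthesis genes in each WT and Lepob/+ library (horizontal axis). In WT 2 and in Lepob/+ 1, 2 and 4 Fasn was at 1743.7 to 3280.1 CPM and Acly at 171.5 to 313.9 CPM, in the other 4 libraries Fasn was at 9676.3 to 16948.6 CPM and Acly at 1164.4 to 2082.2 CPM, and Mogat2 was low in all 4 Lepob/+ libraries.

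Cholesterol synthesis had 4 positive and 18 negative log2 fold changes among 22 genes (median -0.24), with 0 at an unadjusted p in either direction. Sqle, the squalene epoxidase, was at 21.3, 14.8, 30.7 and 20.7 CPM in WT and 19, 13.2, 19.9 and 14.6 CPM in Lepob/+ (log2 fold change -0.39 ± 0.21, not nominal). The mean log2 CPM of the list was 4.58, 4.37, 5.29 and 4.87 in WT and 4.6, 4.5, 4.77 and 4.41 in Lepob/+. Leaving out the lymph node-holding libraries removes WT 1 and WT 2, the lowest of WT, and Lepob/+ 3, the highest of its group. On the remaining libraries the median was -0.58 and 12 of 22 genes were lower at an unadjusted p (1.8% of all genes). Without the muscle-holding libraries the median was -0.08, with 0 lower and 1 higher. Without both kinds, which leaves WT 4 as the only WT library, it was -0.36. Hmgcs1, an early enzyme of the pathway, pointed the other way, at 53.4, 74.4, 121.3 and 115.7 CPM in WT and 149.1, 117.1, 67.7 and 158.2 CPM in Lepob/+ (log2 fold change 0.43 ± 0.32, not nominal).

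Of 17 genes of fatty acid uptake and transport, 2 were higher and 2 lower at an unadjusted p (3.56% and 0.811% over all genes), with a median of -0.04. Fabp5, a fatty acid binding protein of adipocytes, endothelium and macrophages, was at 212.5, 115.4, 292.3 and 243.5 CPM in WT and 118.3, 88.7, 146 and 103.7 CPM in Lepob/+ (log2 fold change -0.92 ± 0.34, nominal). Its overlap came from WT 2, which was below Lepob/+ 1 and 3. Apoc1, an apolipoprotein made by macrophages and hepatocytes, was at 52.3, 57.8, 50.6 and 37.8 CPM in WT and 27.5, 39.8, 33.3 and 28.8 CPM in Lepob/+ (log2 fold change -0.62 ± 0.22, nominal). With the transgene every library with the ob allele lay above every one without it, at 49.1, 23.6, 37.1 and 30.0 CPM in SOD1-G93A and 53.3, 56.4, 80.5 and 50.4 CPM in SOD1-G93A Lepob/+ (interaction 1.40, nominal). The 2 higher genes, Fabp3 and Slc27a2, each rested on 1 or 2 libraries. Fabp3, the binding protein of muscle and of beige fat, was at 0, 0.159, 2.74 and 0.397 CPM in WT and 0.141, 0.269, 20.7 and 176.5 CPM in Lepob/+ (log2 fold change 5.88 ± 2.01, nominal).

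Ucp1 and Cidea, both thermogenic genes, were high in a single Lepob/+ library. Ucp1, which uncouples mitochondria in beige fat, was at 2.56, 1.48, 1.94 and 3.25 CPM in WT and 1.03, 1.91, 312.6 and 0.833 CPM in Lepob/+ (log2 fold change 5.09 ± 2.0, nominal). Only Lepob/+ 3 stood above the WT range, and the other 3 Lepob/+ libraries were at or below 1.91 CPM. Cidea, a lipid droplet protein of beige fat, was at 31.1, 16.1, 40.5 and 14.8 CPM in WT and 15.4, 17, 196.4 and 4.76 CPM in Lepob/+ (log2 fold change 1.19 ± 0.88, not nominal). Slc27a2, an acyl-CoA synthetase and fatty acid transporter, was at 17.1 CPM in Lepob/+ 3 and at 0.106 to 0.587 CPM in the other 7 libraries. Lepob/+ 3 also held lymph node RNA, and the part of that RNA in these values was not tested.

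The thermogenic list of 19 measured genes had 3 higher and 1 lower at an unadjusted p (3.56% and 0.811% over all genes), with a median of 0.71. It was -0.15 without the lymph node-holding libraries, 0.34 without the muscle-holding ones and 0.21 without Lepob/+ 4 alone. Its mean log2 CPM was 2.76, 2.38, 3.11 and 2.22 in WT and 2.14, 1.91, 4.17 and 3.03 in Lepob/+. The lower gene was Clstn3, whose adipocyte form sits on the lipid droplet, at 63.2, 38.4, 53 and 46 CPM in WT and 28.7, 18.7, 45.4 and 19.5 CPM in Lepob/+ (log2 fold change -0.84 ± 0.36, nominal). On the transgenic background Ucp1 was at 75.6, 7.23, 3.16 and 24.1 CPM in SOD1-G93A and 0.819, 0.175, 27.9 and 3.65 CPM in SOD1-G93A Lepob/+, so that levels far above the WT range occurred there as well.

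Mitochondrial and glycolytic lists pointed upwards and had their highest mean in Lepob/+ 4. Of 28 genes of oxidative phosphorylation, 28 had a positive log2 fold change (10967 of the 19736 over all genes) with a median of 0.34, 0 passed an unadjusted p, and 27 were highest in Lepob/+ 4. The list's mean log2 CPM was 7.31, 7.0, 7.75 and 7.36 in WT and 7.26, 7.3, 7.54 and 8.39 in Lepob/+. Atp5b, the beta subunit of ATP synthase, was at 1148.8, 865.5, 1517.7 and 1091 CPM in WT and 1174.8, 985.5, 1288.7 and 2347.1 CPM in Lepob/+ (log2 fold change 0.33 ± 0.27, not nominal). Without Lepob/+ 4 alone the median of the list was -0.02. Uqcrc1, a core protein of complex III, had the smallest p of the list (log2 fold change 0.58 ± 0.30, not nominal), with 611.5 CPM in Lepob/+ 4 and no more than 280.3 CPM in the other 7 libraries.

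Glycolysis had 5 genes higher (3.56% over all genes) and 0 lower at an unadjusted p among 21 (median 0.33), and the median was -0.18 without Lepob/+ 4. Pfkm, the muscle form of phosphofructokinase, was at 31.7, 28.4, 168.2 and 42.4 CPM in WT and 38.6, 37.1, 43.6 and 5054.9 CPM in Lepob/+ (log2 fold change 4.26 ± 1.41, nominal). Lepob/+ 4 and WT 3, the libraries with muscle RNA, were the highest of their groups. Aldoa, an aldolase that muscle expresses strongly, was at 1150.6, 661.6, 1924.9 and 1242.6 CPM in WT and 765.6, 704, 1187.9 and 14992.4 CPM in Lepob/+ (log2 fold change 1.83 ± 0.82, nominal). Without the 2 muscle-holding libraries the log2 fold changes were 0.21 (not nominal) for Pfkm and -0.21 (not nominal) for Aldoa.

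Of 24 genes of pyruvate and citrate metabolism, 4 were higher (3.56% over all genes) and 0 lower at an unadjusted p (median 0.26). Of the 24, 15 were highest in Lepob/+ 4, and without that library the median was -0.04 with 1 higher and 0 lower. Of 24 genes of fatty acid oxidation 1 was higher and 0 lower (median 0.23). It was Cpt1b, the muscle and beige fat form of the mitochondrial fatty acid gate, at 7.74, 3.32, 14.2 and 7.69 CPM in WT and 3.28, 2.1, 86.2 and 288.3 CPM in Lepob/+ (log2 fold change 3.53 ± 1.16, nominal). Lepob/+ 3 and 4 were above every WT library, and Lepob/+ 1 and 2 were below every one. Lists of insulin signalling (20 genes, median 0.12) and of branched-chain amino acid breakdown (17 genes, median -0.02) had 0 genes at an unadjusted p in either direction, and the circadian clock list (19 genes, median 0.29) had 0 as well. Of the clock genes 10 were highest in Lepob/+ 4, and without that library their median was -0.14.

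The list of amino acid stress and mTORC1 regulators held 22 measured genes (median 0.22). Of these, 3 were higher (3.56% over all genes) and 0 lower at an unadjusted p. The median was 0.05 without the muscle-holding libraries, and without Lepob/+ 4 alone it was -0.02, with 1 gene higher and 2 lower. Atf4, the transcription factor of the amino acid response, was at 149.5, 149.7, 171.6 and 147.7 CPM in WT and 81, 90.3, 84 and 273.7 CPM in Lepob/+ (log2 fold change -0.23 ± 0.32, not nominal). Lepob/+ 1 to 3 were all far below the lowest WT library, and Lepob/+ 4 was above the highest. Without the muscle-holding libraries the log2 fold change was -0.82 (nominal), with an adjusted p of 0.246 in edgeR. On the transgenic background Atf4 was at 163.7, 181.5, 132.2 and 144.4 CPM in SOD1-G93A and 155.6, 173.3, 170.2 and 151.6 CPM in SOD1-G93A Lepob/+, where the groups overlapped.

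Other genes of the list had other patterns. Chac1, which degrades glutathione, was at 2.33, 3.78, 6.15 and 2.8 CPM in WT and 8.35, 5.82, 3.06 and 138.3 CPM in Lepob/+ (log2 fold change 3.36 ± 0.96, nominal). Sesn2, a leucine sensor of mTORC1, was at 16.6, 22.6, 27.2 and 23.5 CPM in WT and 44.7, 35.6, 17.1 and 36 CPM in Lepob/+ (log2 fold change 0.57 ± 0.28, not nominal). Trib3, a pseudokinase that restrains Akt, had a log2 fold change of 0.55 ± 0.31 (not nominal). In Sesn2 and Trib3 Lepob/+ 1 and 2 lay above all WT libraries, in Sesn2 Lepob/+ 3 lay at the low end of WT, and Chac1 was highest in Lepob/+ 4. Txnip, which restrains glucose uptake, was separated upwards by a narrow margin, at 848.5, 1019, 934.8 and 846.7 CPM in WT and 1336.1, 1163.1, 1039.6 and 1187.1 CPM in Lepob/+ (log2 fold change 0.37 ± 0.20, not nominal).

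Glucocorticoid and fasting response genes had 6 higher (3.56% over all genes) and 0 lower at an unadjusted p among 18 (median 0.50). The median was 0.23 without the muscle-holding libraries (2 higher, 0 lower), 0.75 without the lymph node-holding ones (4 higher, 1 lower) and 0.17 without Lepob/+ 4 alone (2 higher, 0 lower). Fkbp5, the co-chaperone of the glucocorticoid receptor, was separated upwards, at 31.4, 32, 21 and 23.1 CPM in WT and 34.7, 40.6, 53.4 and 85.1 CPM in Lepob/+ (log2 fold change 0.99 ± 0.38, nominal). Tsc22d3, or GILZ, was at 87.2, 60.9, 89.2 and 84.6 CPM in WT and 67.3, 107.3, 138.7 and 359.7 CPM in Lepob/+ (log2 fold change 1.06 ± 0.46, nominal), and Lepob/+ 1 lay within the WT range. Cebpd, an early adipogenic factor that glucocorticoids induce, was at 14.2, 22.2, 20.5 and 33.4 CPM in WT and 25, 43.4, 20.3 and 73 CPM in Lepob/+ (log2 fold change 0.84 ± 0.37, nominal). The highest value of all 3 genes was that of Lepob/+ 4.

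Progenitor, fibroblast and collagen genes overlapped between the genotypes. Over the 6 stromal lists the medians lay between 0.01 and 0.13 (all genes 0.03). Of 22 progenitor, 21 fibroblast and 22 collagen genes, 0 were higher or lower at an unadjusted p. Dcn, the matrix proteoglycan decorin of fibroblasts, was at 655.3, 1214, 801.5 and 2086 CPM in WT and 1604.3, 1853.7, 778.3 and 747.9 CPM in Lepob/+ (log2 fold change 0.07 ± 0.39, not nominal). Col1a1, a chain of type I collagen, was at 909.8, 1751.1, 1430.9 and 2812.2 CPM in WT and 2190.8, 2256.4, 720.6 and 1299.1 CPM in Lepob/+ (log2 fold change -0.09 ± 0.39, not nominal). Col3a1, the chain of type III collagen, was at 2711.7, 5255.3, 3577.6 and 6720.8 CPM in WT and 6784.2, 6793.2, 2010.5 and 2807.7 CPM in Lepob/+ (log2 fold change 0.01 ± 0.39, not nominal). WT 4 with Lepob/+ 1 and 2 were the highest libraries in all 3 genes.

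Libraries of 1 genotype thus differed widely in stromal transcripts. The mean log2 CPM of the fibroblast list was 7.17, 7.77, 7.66 and 8.41 in WT and 8.2, 8.4, 6.94 and 7.58 in Lepob/+. Pi16, which marks the interstitial progenitors of fat, was at 211.1, 334.1, 344.3 and 1310.7 CPM in WT and 726.5, 1058.9, 162.2 and 307.4 CPM in Lepob/+ (log2 fold change 0.04 ± 0.60, not nominal). C1qa, a complement gene of tissue macrophages, was also highest in Lepob/+ 1 and 2, WT 2 and WT 4, at 174, 497, 186.2 and 650.1 CPM in WT and 407.9, 950.2, 174.3 and 281.7 CPM in Lepob/+ (log2 fold change 0.27 ± 0.50, not nominal). Of 20 macrophage genes 0 were higher or lower at an unadjusted p (median 0.11).

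Thrombospondins had the smallest p of the 26 matrix genes, of which 1 was higher and 0 lower at an unadjusted p (median 0.05). Thbs1, a matrix protein that activates TGF-beta and inhibits angiogenesis, was at 64.1, 78.9, 44.2 and 27.8 CPM in WT and 201.6, 150.4, 31.6 and 120.1 CPM in Lepob/+ (log2 fold change 1.23 ± 0.49, nominal). Lepob/+ 1, 2 and 4 were above every WT library and Lepob/+ 3 was among the lowest. Leaving out the lymph node-holding libraries removes WT 1 and WT 2, the highest of WT, and Lepob/+ 3, the lowest of its group. On the remaining libraries the log2 fold change was 2.11 (nominal). Thbs2, its relative, was at 80.3, 223.9, 146 and 262.9 CPM in WT and 437.7, 515.9, 99.7 and 313.7 CPM in Lepob/+ (log2 fold change 0.94 ± 0.46, not nominal), again with Lepob/+ 3 the lowest of its group. Fn1, fibronectin, was at 946.3, 1581.4, 525.2 and 3120.7 CPM in WT and 2022.8, 2207.3, 786.8 and 414.2 CPM in Lepob/+ (log2 fold change -0.18 ± 0.52, not nominal).

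Itgav was the single gene of its list of alpha V integrin and partners to be lower at an unadjusted p, and Itgb6 the single gene to be higher, among 21 (median 0.08). Itgb6, the partner chain of epithelia, was at 1.47, 0.979, 1.03 and 1.24 CPM in WT and 1.43, 1.15, 1.29 and 9.19 CPM in Lepob/+ (log2 fold change 1.44 ± 0.61, nominal), with Lepob/+ 4 alone above the WT range. Itgb1, the most common partner, was at 291.5, 356.1, 384 and 431.6 CPM in WT and 470.9, 461.1, 255.8 and 389.8 CPM in Lepob/+ (log2 fold change 0.11 ± 0.20, not nominal). Of 17 genes of TGF-beta and myofibroblasts, 1 was higher and 0 lower (median 0.05). It was Smad3, which relays the TGF-beta signal, at 59, 72.1, 60.8 and 61 CPM in WT and 78.1, 67.7, 54.4 and 203.5 CPM in Lepob/+ (log2 fold change 0.67 ± 0.31, nominal). Only Lepob/+ 4 was far from the rest, and without the muscle-holding libraries the log2 fold change was 0.05 (not nominal). Acta2, the actin of smooth muscle and myofibroblasts, had a log2 fold change of 0.42 ± 0.27 (not nominal).

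**Figure D4:**
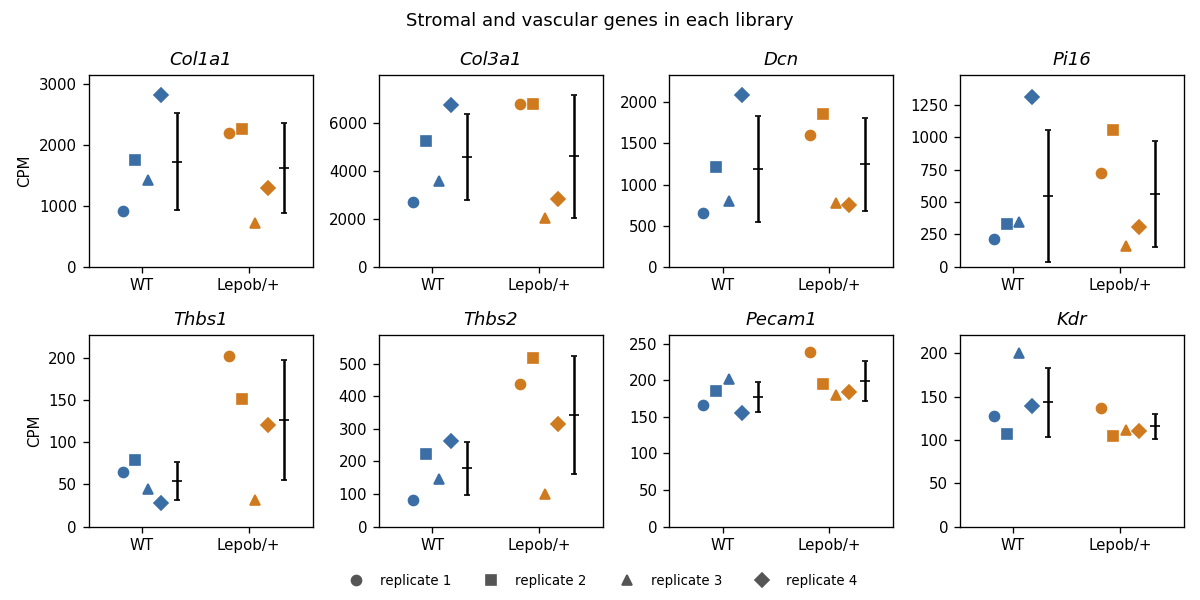
CPM (vertical axes) of 6 stromal and 2 endothelial genes in the 4 WT and 4 Lepob/+ libraries, with symbols for the replicates and bars for the mean and SD (n = 4). The groups overlapped in all 8 genes, Thbs1 was at 120.1 to 201.6 CPM in 3 Lepob/+ libraries against 27.8 to 78.9 CPM in WT, and Dcn, Col1a1 and Col3a1 were highest in WT 4, Lepob/+ 1 and Lepob/+ 2.

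Vascular genes differed little. Of 22 blood endothelial genes, 0 were higher or lower at an unadjusted p (median 0.09), and the list's mean log2 CPM was 5.66, 5.81, 6.39 and 6.07 in WT and 6.42, 6.15, 5.53 and 6.04 in Lepob/+. Pecam1, the junction protein CD31, was at 166, 185.9, 201.4 and 155 CPM in WT and 238.8, 194.6, 179.4 and 183.7 CPM in Lepob/+ (log2 fold change 0.17 ± 0.18, not nominal). Kdr, the main receptor of Vegfa, was at 127.2, 107.3, 200.3 and 138.7 CPM in WT and 136.6, 104, 111.7 and 110.9 CPM in Lepob/+ (log2 fold change -0.31 ± 0.21, not nominal). Nos3, the endothelial nitric oxide synthase, was at 76.6, 45.2, 110.7 and 75.8 CPM in WT and 70.2, 52.7, 41.1 and 61.3 CPM in Lepob/+ (log2 fold change -0.45 ± 0.27, not nominal). In Kdr and Nos3 WT 3 was the highest library and the rest overlapped, and with the transgene Nos3 pointed upwards (interaction 0.94, nominal).

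The ligand Vegfa was at 154.3, 182.8, 277.5 and 185.8 CPM in WT and 248.8, 226.2, 159.8 and 185 CPM in Lepob/+ (log2 fold change 0.03 ± 0.24, not nominal). Of 23 angiogenic ligands and receptors, 1 was lower and 0 were higher at an unadjusted p (median 0.04), and the lower one was Apln. Of 15 genes of capillary endothelium and fatty acid transport, 1 was higher and 1 lower (median -0.04), and of 17 arterial and venous genes 0 in either direction (median 0.11). Among 19 genes of pericytes and vascular smooth muscle 4 were higher (3.56% over all genes) and 0 lower (median 0.11). Of the 19, 9 were highest in Lepob/+ 4, and without the muscle-holding libraries 0 were higher or lower at an unadjusted p. One of the 4 was Des, desmin, which skeletal muscle also expresses, at 32.9, 31.7, 152.4 and 25 CPM in WT and 31.3, 22.9, 42.7 and 4422 CPM in Lepob/+ (log2 fold change 4.22 ± 1.44, nominal). Lepob/+ 4 and WT 3 were again the highest of their groups, and without them the log2 fold change was 0.10 (not nominal). Mcam, or CD146, of pericytes and endothelium, was at 170.3, 220.2, 412.8 and 272.6 CPM in WT and 446.3, 357.1, 118.4 and 211.8 CPM in Lepob/+ (log2 fold change 0.08 ± 0.39, not nominal).

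Of 12 lymphatic endothelial genes, 1 was higher and 0 lower at an unadjusted p (median 0.05). Lyve1, a hyaluronan receptor of lymphatic vessels and of some macrophages, was at 23.4, 82.9, 17.1 and 99.6 CPM in WT and 96.7, 206.4, 23.7 and 62.9 CPM in Lepob/+ (log2 fold change 0.80 ± 0.62, not nominal). Prox1, the transcription factor that defines lymphatic endothelium and named after its values were seen, was at 1.88, 1.96, 0.284 and 0.45 CPM in WT and 0.684, 0.489, 1.53 and 1.77 CPM in Lepob/+ (log2 fold change -0.04 ± 0.70, not nominal). Prox1 was highest in WT 1 and 2 and in Lepob/+ 3 and 4.

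Mammary epithelium lies within the inguinal fat of female mice. Of 22 of its genes, 0 were higher and 2 lower at an unadjusted p (3.56% and 0.811% over all genes), with a median of -0.13. Krt8, a keratin of luminal cells, was at 275.3, 208.7, 112.7 and 155.7 CPM in WT and 218.4, 130.0, 231.8 and 204.4 CPM in Lepob/+ (log2 fold change 0.06 ± 0.37, not nominal), and its level did not follow that of Aqp5, which was low in all 4 Lepob/+ libraries. Esr1, the oestrogen receptor, was named after its values were seen. It was at 49.6, 62.3, 6.17 and 22 CPM in WT and 9.59, 6.4, 6.39 and 7.46 CPM in Lepob/+ (log2 fold change -2.23 ± 0.93, nominal), with WT 3 below all Lepob/+ libraries.

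**Figure D5:**
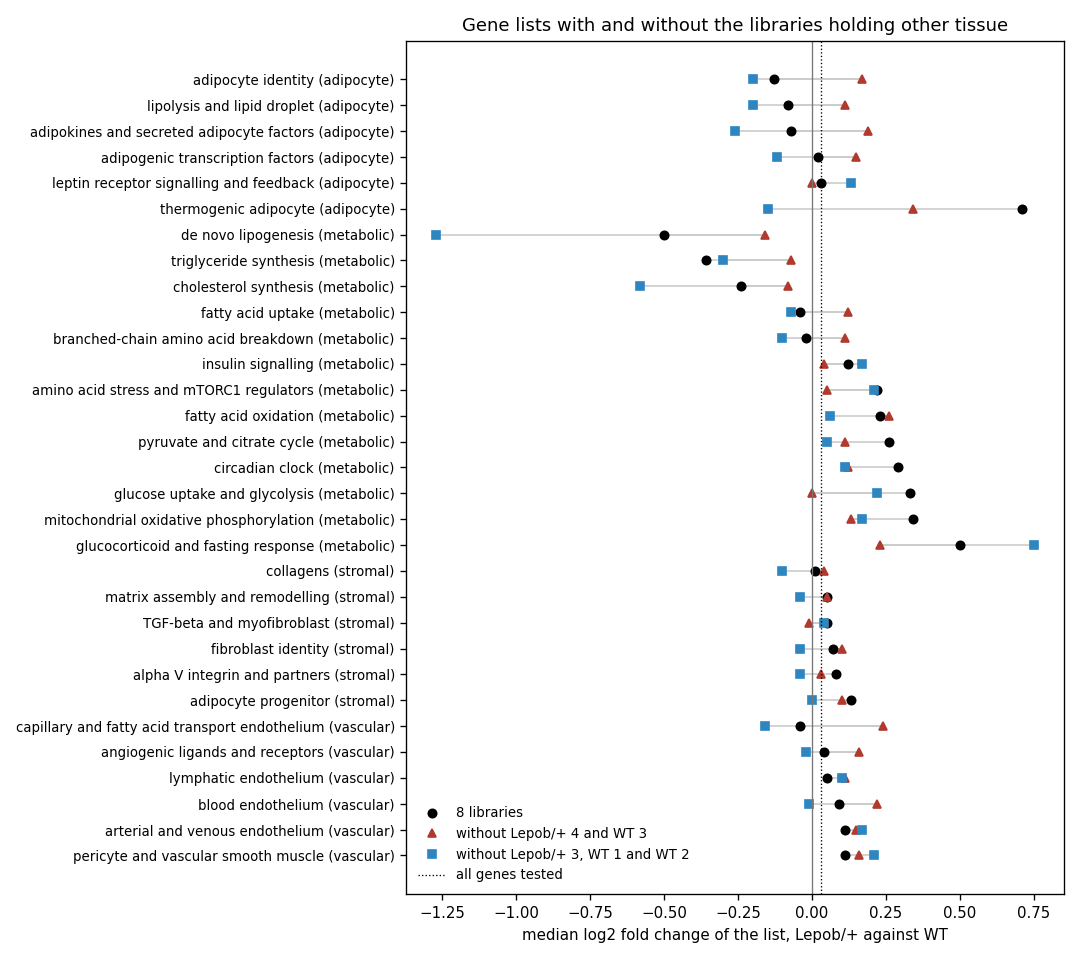
Median log2 fold change of Lepob/+ against WT (horizontal axis) over the measured genes of 31 adipocyte, metabolic, stromal and vascular lists, with all 8 libraries (circles), without Lepob/+ 4 and WT 3 (triangles) and without Lepob/+ 3, WT 1 and WT 2 (squares), and a dotted line for the median of all genes tested. In the order circle, triangle and square, de novo lipogenesis lay at -0.50, -0.16 and -1.27, the thermogenic list at 0.71, 0.34 and -0.15 and the glucocorticoid list at 0.50, 0.23 and 0.75, while the 6 stromal lists lay between 0.01 and 0.13 with all 8 libraries.

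Whether the Lepob/+ difference itself differed with and without the SOD1-G93A transgene was tested by the interaction over all 16 libraries. After adjustment 0 genes passed in edgeR (smallest adjusted p = 0.564), and DESeq2 on the 16 libraries called 49. At an unadjusted p the interaction was positive for 426 genes (2.16%) and negative for 1148 (5.82%). Lymph node RNA was unevenly spread over the transgenic groups. The mean log2 CPM of the T cell list was 5.98, 6.6, -0.1 and 5.8 in SOD1-G93A and 0.2, 0.31, -0.25 and 0.16 in SOD1-G93A Lepob/+. Of 24 T cell genes, 18 had a negative and 0 a positive interaction at an unadjusted p (median -5.19). The part of that RNA in the interaction counts was not tested. Among the genes described here, for example, Apoc1 (1.40, nominal), Gm525 (1.72, nominal), Tm9sf1 (0.85, nominal) and Orm1 (1.24, nominal) had positive interactions, as did Itgav (3.61, nominal), Mogat2 (2.54, nominal), Aqp5 (2.30, nominal), Apln (1.13, nominal) and Nos3 (0.94, nominal). Negative ones were found, for example, for Ddit4 (-1.79, nominal) and Fkbp5 (-1.24, nominal), which were separated upwards in Lepob/+ against WT and overlapped in SOD1-G93A Lepob/+ against SOD1-G93A. These example genes were mostly named for their difference between Lepob/+ and WT, which also enters the interaction. Interactions of the opposite sign are therefore partly fixed by that choice. The interaction was 0.43 for Fasn and 0.04 for Acly, neither of them nominal, and over the de novo lipogenesis list its median was 0.28, against -0.09 over all genes.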

How the data were processed

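RNA of iWAT, extracted with Qiazol and columns for lipid-rich tissue, was made into mRNA libraries and read in pairs. Per the study's methods the authors trimmed reads with fastp (Phred score of 30, length of 30 bases), aligned them to mm10 (GRCm38) with HISAT2 2.1.0 and counted unique reads per gene with featureCounts 2.0.2. The study's methods and the labels name different library kits, and the strand setting and the annotation release are not given in the sources used here, so overlapping and antisense genes are uncertain. The deposited values are the authors' raw counts for 54752 Ensembl IDs, of which 54723 matched a symbol of GENCODE M21. Sequences are from GENCODE M21 and RefSeq.

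In edgeR 4.0.16 (R 4.3.3), filterByExpr (min.count 10, min.total.count 15) left 19736 genes, which were scaled by TMM and tested with a robust quasi-likelihood F test over all 16 libraries with genotype as the factor, Benjamini-Hochberg adjusted at 0.05. Counting error is small at 37.2 M counts or more, apart from genes near 0 counts, and the limits given for genes at 0 cover counting error only. The SE of the log2 fold changes come from the fit over all 16 libraries and include the spread between libraries. Nothing in the labels says which mice were littermates, and p-values measure the spread between these mice. The procedure was tested on simulated counts. These held no differences in muscle or lymph node RNA between libraries, so they cannot show how it performs with such RNA.

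The lists (42, with 742 genes) and the comparison were chosen with earlier results of these data known. The genes named are Lep, Lepr, Sod1, the 5 genes the study names, of each adipocyte, stromal, vascular or metabolic list the 4 with the smallest p and the 3 with the highest CPM, of other lists the 3 with the highest CPM, and the 10 smallest p overall. Of these a part is printed, 1 gene of the adipokine list is not reported here, and Socs3, Gcnt2, Rab7, Egr1, Acly, Prox1, Esr1, Ube2v1, Tlr4 and Kmt2a were added after their values were seen. Alternatives were other scalings, filters and tools (DESeq2 1.42.0, limma 3.58.1), leaving out each library in turn, leaving out the muscle-holding or lymph node-holding libraries, and the replicate number as a block. Same-numbered libraries of WT and Lepob/+ had residuals correlated at -0.34, -0.12, -0.6 and -0.04, so that the numbers were not taken to pair the mice.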

Additional observations from a re-analysis of the deposited data

Results flagged for a closer look

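In groups of 4, a library was taken to stand apart when its gap to the nearest other library, as a share of the group's range, passed Dixon's 95% limit. Of 184 groups examined (92 genes and lists in WT and in Lepob/+), 28 had such a library (15.2%). The genes were partly named by their values, and the lists include those of muscle, T cells and lymph node. The share of about 1 in 20 that chance alone gives is therefore not a fair baseline here. Lepob/+ 4 stood apart upwards in 10, with 14992.4 CPM of Aldoa, 273.7 of Atf4, 138.3 of Chac1, 4422.0 of Des, 176.5 of Fabp3, 9.19 of Itgb6, 190.4 of Nampt, 5054.9 of Pfkm and 203.5 of Smad3, and a mean log2 CPM of 12.06 over the skeletal muscle list. WT 3, the other library with muscle RNA, stood apart upwards in 5, with 171.6 CPM of Atf4, 152.4 of Des, 2.74 of Fabp3 and 168.2 of Pfkm, and 6.62 over the skeletal muscle list.

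Lepob/+ 3 stood apart upwards in 9. These were the lipid synthesis genes Acly (2006.9 CPM), Fasn (13320.1), Me1 (1648.3) and Scd2 (352.1), the thermogenic or fatty acid genes Cidea (196.4), Slc27a2 (17.1) and Ucp1 (312.6), and the mean log2 CPM of the T cell list (6.16) and of the lymph node stroma list (4.17). WT 2 stood apart with the lowest Me1 (492.9 CPM) and Tsc22d3 (60.9 CPM) and the highest Smad3 (72.1 CPM) of its group, and WT 4 with the highest Pi16 (1310.7 CPM). The part of lymph node or muscle RNA in these values was not tested.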

How the results depend on the processing

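The count of genes at an adjusted p was 0 in edgeR and stayed at 0 under 20 of 23 alternatives. It was 5 with DESeq2 on the 8 libraries, 3 with DESeq2 on the 16 (Chrnd, Gm525 and Oas1f) and 6 without both the muscle-holding and the lymph node-holding libraries (Bzw1, Col4a3bp, Dnm3os, Edem3, Pcdhga1 and Samd8), a set of libraries chosen with the data known. The 862 genes at an unadjusted p became 414 with the replicate block, which does not pair mice here, 254 with edgeR and 411 with DESeq2 on the 8 libraries alone, and 278 without the muscle-holding libraries. Leaving out 1 library gave 335 to 2259, with 519 without WT 1, 1405 without Lepob/+ 2, 2259 without Lepob/+ 3 and 335 without Lepob/+ 4. For the interaction the count at an adjusted p was 0 in edgeR, 49 with DESeq2 on the 16 libraries and 0 to 2 with 1 library left out, the 2 (Fbxo34 and Ptp4a1) being found without the library labelled SOD1-G93A Lepob/+ 3. Its 1574 genes at an unadjusted p became 969 with the replicate block and 961 to 2358 with 1 library left out, 961 without WT 4 and 1027 without Lepob/+ 3. The causes were not tested. Over the 84 genes reported, 140 of 1927 values under an alternative had another sign, and 50 genes kept theirs under every alternative. Of 943 list medians, 19 moved by more than the spread between libraries. At these depths genes of a few counts, such as Gm128, Gm525 and Slc27a2, are the least certain.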

Other observations

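Genes such as Itgav, Slc36a1 and Acly were at a low or a high level with little between. Among 12631 genes with a mean of at least 5 CPM over the 16 libraries, 270 had a widest gap between neighbouring libraries of more than 1 on the log2 scale that was also wider than the range on either side, with at least 3 libraries on each side. In 185 of them the high libraries were WT 1, WT 2, Lepob/+ 3 and SOD1-G93A 1, 2 and 4, and in the other 85 they were another set. In 0 of the 270 did the 2 levels split all WT from all Lepob/+ libraries in either direction.

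Ube2v1, a partner subunit of ubiquitin-conjugating enzymes, was at 9.22 to 10.4 CPM in WT and at 68.8, 9.78, 10.9 and 107 CPM in Lepob/+, so that only Lepob/+ 1 and 4 were high. With the transgene 1 SOD1-G93A library was also high (55.2, 14.1, 14.8 and 11.2 CPM), and the double mutants were low (12.1, 12.6, 15.3 and 12 CPM). Tlr4, the receptor for lipopolysaccharide, was at 17.5, 2.82, 16.5 and 30.1 CPM in WT and 27.9, 3.72, 14.7 and 14.7 CPM in Lepob/+, with 1 low library in each genotype, and at 1.04, 16.5, 2.3 and 2.54 CPM in SOD1-G93A. Kmt2a, a histone H3 methyltransferase, was at 9.2, 6.53, 57 and 54.2 CPM in WT and 4.55, 3.67, 10.5 and 2.76 CPM in Lepob/+, and of the transgenic libraries SOD1-G93A 2 was at 10.7 CPM and SOD1-G93A Lepob/+ 1 at 3.39 CPM. The 8 low libraries were WT 1, WT 2, the 4 Lepob/+ ones and these 2, and the other 8 of the 16 were high.

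Ube2v1, Tlr4 and Kmt2a were named after their values were seen. The cause of the 2 levels was not tested.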
